A study of Mus musculus with 24 samples.

Results

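Intergenic chromatin peaks that lie more than 1 kb and at most 50 kb from the nearest annotated gene end were described in activated mouse CD8 T cells. A peak here is a stretch of DNA that was open to a transposase in the assay for transposase-accessible chromatin (ATAC-seq). A peak was a member where it overlapped no gene body of the mouse assembly GRCm38 and where the gap to the nearest end of any annotated gene fell within those limits. Of 75802 peaks counted in the series, 18435 (24.3%) met the rule, and only the position of a peak was used. The other peaks were 19611 at gene ends, 36333 within genes and 1423 more than 50 kb from any gene.

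CD8 T cells of C57BL/6J mice were purified from spleen and lymph nodes on magnetic columns and activated in culture for 3 days with IL-2 at 100 U/mL and anti-CD28 at 0.5 µg/mL. From day 2 to day 3 the cells received 20 mM of sodium chloride (NaCl), pyruvate, lactate, or lactate together with Oxyrase, an enzyme preparation that removes oxygen from the medium. Each of the 4 groups had 3 ATAC-seq and 3 RNA-seq libraries, 24 in all, and NaCl was the control for the added salt. Oxyrase was given only with lactate and its amount is not stated in the sources used here, so an effect of Oxyrase alone cannot be told apart from one that needs lactate. Nothing in the labels ties the 3 libraries of 1 group to separate mice or cultures, so p-values measure only the spread between these samples, which may be technical.

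Distal open sites in T cells include enhancers and silencers, short stretches where transcription factors bind and act on promoters that can be far away on the same chromosome. Such sites are known to be set up by the factors that antigen receptor, cytokine and metabolic signals switch on. A nearest gene is given below for every peak as a place name, and was not tested as the target of the peak. In a pool of cells, fewer cells with an open site and a site less open in each cell cannot be told apart.

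Promoter sequences are shown for 4 genes near peaks described below, because in each the distal peak changed when Oxyrase was added while the peak over the promoter did not pass the test. These genes were chosen after their values were seen. Egln3 encodes an oxygen-sensing prolyl hydroxylase, Gpt2 a mitochondrial alanine transaminase that makes or uses pyruvate, Prf1 the pore-forming protein perforin, and Cd8a a chain of the CD8 co-receptor. Each sequence is 300 bases of RefSeq GRCm38.p6 on the strand of the gene, from 250 bases before to 50 bases after its start, and capitals mark ACGTG or GCGTG on either strand, the core bound by hypoxia-inducible factors (HIF); a CACGTG would count on both strands.
Egln3, chr12:54203825-54204124, minus strand: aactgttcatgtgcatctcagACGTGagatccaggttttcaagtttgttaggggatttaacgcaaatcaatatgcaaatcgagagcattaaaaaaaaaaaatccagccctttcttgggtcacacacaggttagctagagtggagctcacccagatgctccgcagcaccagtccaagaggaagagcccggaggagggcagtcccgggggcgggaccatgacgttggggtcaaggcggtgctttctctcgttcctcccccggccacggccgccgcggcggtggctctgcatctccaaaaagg
Gpt2, chr8:85492326-85492625, plus strand: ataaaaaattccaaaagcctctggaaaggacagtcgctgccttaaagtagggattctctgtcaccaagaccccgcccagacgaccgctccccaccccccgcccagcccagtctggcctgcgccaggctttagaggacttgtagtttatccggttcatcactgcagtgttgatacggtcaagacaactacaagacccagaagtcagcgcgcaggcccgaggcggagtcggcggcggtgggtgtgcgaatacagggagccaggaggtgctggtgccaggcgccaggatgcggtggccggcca
Prf1, chr10:61297586-61297885, plus strand: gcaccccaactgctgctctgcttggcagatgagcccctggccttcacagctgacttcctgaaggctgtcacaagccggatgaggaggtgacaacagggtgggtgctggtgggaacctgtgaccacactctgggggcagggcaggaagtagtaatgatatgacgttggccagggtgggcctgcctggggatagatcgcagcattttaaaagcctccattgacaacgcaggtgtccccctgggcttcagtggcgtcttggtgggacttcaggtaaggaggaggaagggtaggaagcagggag
Cd8a, chr6:71373177-71373476, plus strand: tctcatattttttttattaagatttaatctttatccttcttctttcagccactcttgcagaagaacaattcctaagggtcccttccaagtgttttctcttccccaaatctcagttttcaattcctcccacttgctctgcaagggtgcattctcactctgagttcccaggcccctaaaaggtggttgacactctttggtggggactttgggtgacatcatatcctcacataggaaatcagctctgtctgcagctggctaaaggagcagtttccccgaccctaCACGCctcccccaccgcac
The core stood once in the Egln3 and once in the Cd8a window and in neither of the other two; 14380 of 32851 promoters of this length (43.8%) held it. In lactate the promoter peak of Egln3 stood at 39.1 ± 1.65 CPM (counts per M counts, with M for mega, mean ± SD, n = 3) and with Oxyrase at 39.8 ± 1.03 CPM, a log2 fold change of 0.02 ± 0.09 (SE). For Gpt2 the promoter values were 51.8 ± 4.38 and 52.5 ± 4.07 CPM, and for Prf1 37.3 ± 1.68 and 38.7 ± 2.01 CPM. At Cd8a the promoter peak read 30.8 ± 0.65 CPM in lactate and 26.7 ± 1.36 CPM with Oxyrase, a change of -0.21 ± 0.09 that missed the threshold (adjusted p = 0.0673, edgeR's quasi-likelihood test with Benjamini-Hochberg adjustment). The values of the distal peaks follow below.

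Total counts per library were 25.31 to 37.07 M over all peaks in ATAC and 26.04 to 39.64 M over all genes in RNA. An intergenic peak had a median of 105 to 162 counts per library, and a count of 0 allowed up to 3 counts, or 0.0815 to 0.116 CPM by library, for counting error only. The biological coefficient of variation was 9.70% in ATAC and 5.05% in RNA. Markers of CD8 T cells were high in RNA throughout, Cd8a at 399 to 710 CPM, Cd8b1 at 129 to 224 CPM and Cd3e at 161 to 200 CPM, whereas Cd4 stayed between 0.304 and 0.608 CPM. The summed level of 16 CD8 lineage genes was 6766 to 6848 CPM in NaCl and 5342 to 5445 CPM in lactate with Oxyrase. B cell genes summed to 202 to 212 CPM in NaCl and 68.8 to 79.4 CPM with Oxyrase, with 7 of 10, Ms4a1 and Pax5 among them, under 1 CPM in every library. Myeloid genes summed to 8.89 to 9.98 CPM in lactate and 24.4 to 26.2 CPM with Oxyrase, with 12 of 14 under 1 CPM. Genes of CD4 and regulatory T cells summed to 52.2 to 55.3 CPM in lactate and 86 to 91.7 CPM with Oxyrase. NK cell genes summed to 360 to 380 CPM in lactate and 449 to 507 CPM with Oxyrase. In these lists Cd4 and 4 of 8 NK cell genes, Ncr1 and Gzma among them, were under 1 CPM in every library. The part of these levels in the peak results below was not tested.

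Intergenic peaks were small and weak next to those at gene ends. Their median width was 381 bp (5th to 95th percentile 151 to 991 bp) and their median level over the 12 libraries was 4.17 CPM (1.17 to 29 CPM). Gene-end peaks had medians of 784 bp and 17.2 CPM, while peaks within genes, at 378 bp and 4.43 CPM, were close to the intergenic ones. The nearest gene was protein-coding for 9273 peaks (50.3%), a long non-coding RNA for 5718 (31%) and a pseudogene for 2615 (14.2%). With the strand of the gene known, 5375 peaks lay upstream and 6241 downstream. For the other 6819 peaks the strand was not matched.

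The median distance to the nearest gene end was 8222 bp (quartiles 3770 and 16742 bp). They fell into 8496 stretches between neighbouring genes, of which 4208 held 1 intergenic peak and 80 held 10 or more. In all, 14227 peaks (77.2%) shared their stretch with another. A long row of 17 stood on chromosome 10 between Perp, a p53 target, and Tnfaip3, which encodes the NF-kB inhibitor A20, and 17 stood before Emsy on chromosome 7. The largest row, 18 peaks, stood before Mir101c at the start of chromosome 9 and is described with the brightest peaks.

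On average, intergenic peaks took a larger part of the accessible signal with lactate than with NaCl, and larger still with lactate and Oxyrase. Their share of all peak counts was 14.40%, 14.24% and 15.22% in the 3 NaCl libraries and 14.39%, 14.40% and 15% in the pyruvate libraries. It was 15.09%, 15.68% and 15.61% in lactate and 16.36%, 16.07% and 16.28% in lactate with Oxyrase. The Oxyrase libraries lay above all others, and NaCl 3 lay among the lactate libraries. As group values the shares were 14.62% ± 0.52, 14.60% ± 0.35, 15.46% ± 0.32 and 16.24% ± 0.15 (SD, n = 3). Gene-end peaks moved the other way, from 53.53% ± 1.96 in NaCl to 50.65% ± 0.84 in lactate and 48.15% ± 0.76 with Oxyrase. Peaks within genes moved with the intergenic ones. Their share was 29.85% to 32.46% in the NaCl libraries, 32.25% to 33.15% in lactate and 33.96% to 35.23% with Oxyrase. Peaks beyond 50 kb also had their largest shares with Oxyrase, so the gain was not particular to intergenic peaks within 50 kb. The share is a sum over members and was not tested.

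**Figure D1:**
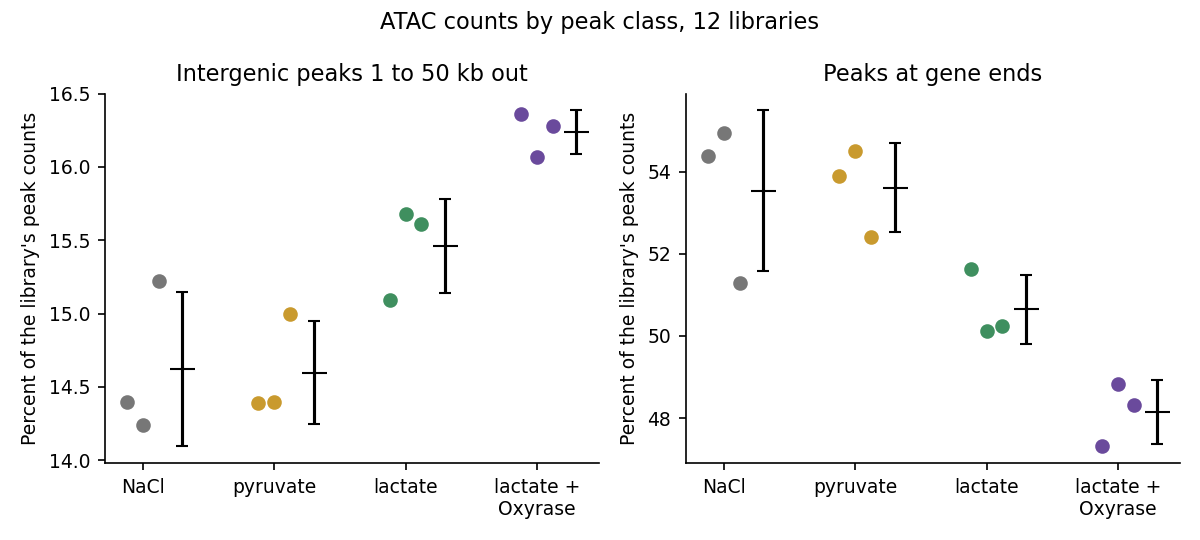
Percent of all ATAC peak counts (y axis) that fell in intergenic peaks 1 to 50 kb from a gene (left) and in peaks at gene ends (right), for the 4 groups (x axis); points are libraries, black marks are the mean ± SD of 3 libraries, and the y axes do not start at 0. The intergenic share was between 16.07% and 16.36% in the 3 Oxyrase libraries, above the 9 others, while the gene-end share was lowest there.

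Lactate with Oxyrase was compared with lactate alone to read the effect of adding Oxyrase at the same added lactate. The labels give no level of oxygen, lactate or pyruvate in the medium, so an oxygen effect was not tested apart from others. With Oxyrase more distal sites gained accessibility than lost it: 3383 intergenic peaks rose and 1885 fell. Together 5268 of 18435 (28.6%) passed the test (edgeR, adjusted p under 0.05), against 28.4% of all peaks (15.6% higher and 12.8% lower). The direction differed from that at gene ends, where 6.76% rose and 19.7% fell, whereas among intergenic peaks 18.4% rose and 10.2% fell. Peaks within genes (18.8% and 10.4%) and those beyond 50 kb (21.6% and 11%) had shares near the intergenic ones. Among the intergenic calls 460 rose and 108 fell at least 2-fold.

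The excess of rising over falling sites was present, in differing size, under each scaling tried, with 3547 higher and 1434 lower by total counts and 3001 higher and 2364 lower with factors from the intergenic peaks alone. Their median log2 fold change was 0.03, and -0.02 over all peaks. It turned to -0.02 with factors from the intergenic peaks and to -0.01 with trended offsets. Calls followed level: 17.5%, 25.2%, 32.3% and 39.3% passed in 4 strata of equal size from the weakest to the strongest peaks, whose median levels were 1.61, 3.09, 5.82 and 16 CPM. The direction also differed by level. In the weakest stratum 12.8% rose and 4.69% fell, and in the strongest 22.7% rose and 16.6% fell. The part of level in the difference from gene-end peaks was not tested.

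**Figure D2:**
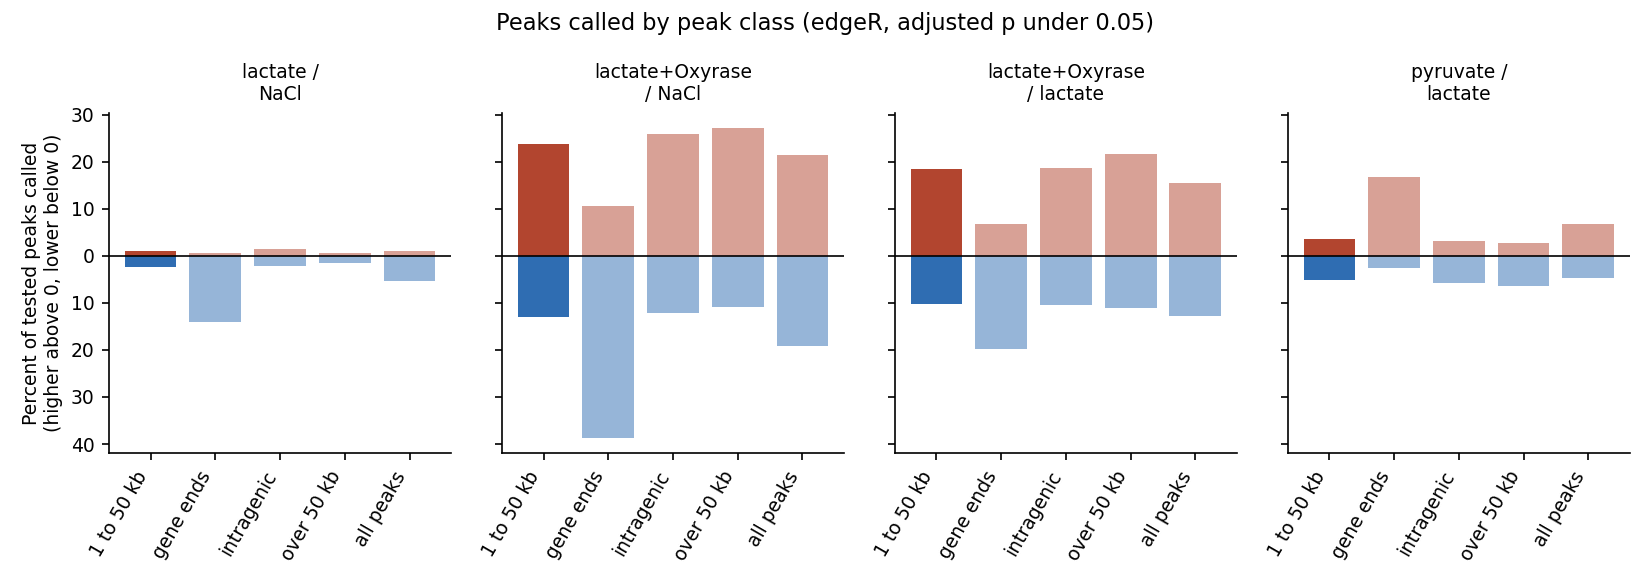
Percent of peaks called by edgeR (adjusted p under 0.05) as higher (upward bars) or lower (downward bars) in each comparison, for intergenic peaks 1 to 50 kb from a gene, peaks at gene ends, peaks within genes (intragenic), peaks beyond 50 kb and all peaks. In lactate with Oxyrase against lactate 18.4% of intergenic peaks were higher and 10.2% lower, and at gene ends 6.76% and 19.7%.

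Rising sites were more frequent farther from genes. Among 2798 peaks at 1 to 2.5 kb, 15.5% rose with Oxyrase against lactate. The share was 16.7% of 3302 at 2.5 to 5 kb, 17.7% of 4408 at 5 to 10 kb, 19.8% of 5477 at 10 to 25 kb and 21.8% of 2450 at 25 to 50 kb. Falling sites had no such order, at 10.3%, 10.2%, 9.64%, 10.4% and 10.8%. Higher calls kept this order under every alternative scaling, with DESeq2, with a replicate term and without each library in turn. Median levels in these bins were 4.56, 4.46, 4.02, 4.08 and 3.76 CPM, and their part in the order was not tested. Just inside the inner limit, at 1 to 1.5 kb, 292 of 1053 peaks (27.7%) were called, and just outside it, at 0.5 to 1 kb, 301 of 1151 (26.2%). Around the outer limit 81 of 243 peaks at 45 to 50 kb (33.3%) and 79 of 210 at 50 to 55 kb (37.6%) were called. Side made little difference, with 29.2% of upstream and 27.9% of downstream peaks called.

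**Figure D3:**
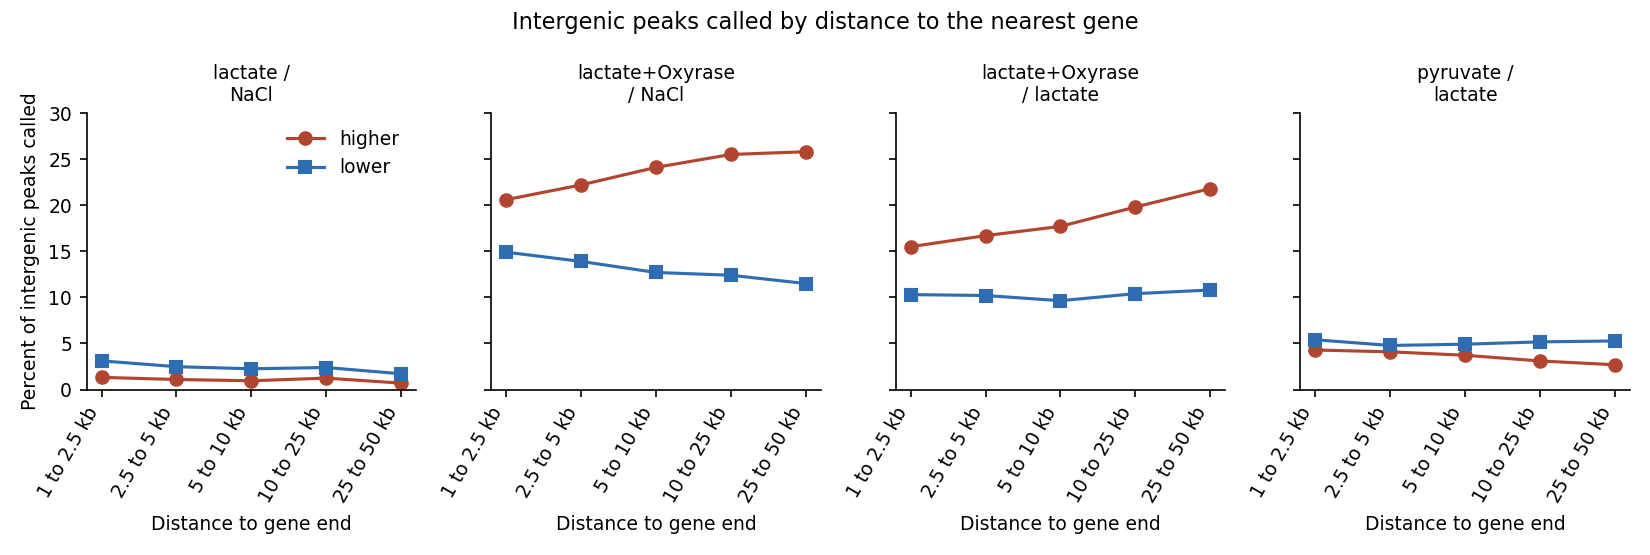
Percent of intergenic peaks called higher and lower (y axis) by distance to the nearest gene end in kb (x axis, 5 bins), in each of the 4 comparisons with calls. With Oxyrase against lactate the higher calls went from 15.5% at 1 to 2.5 kb to 21.8% at 25 to 50 kb, and the lower calls stayed between 9.64% and 10.8%.

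The peak with the largest rise among those named by size stood at chr18:61622079-61622571, 1037 bp from the non-coding Gm41747 and 31759 bp from Csnk1a1, which encodes casein kinase 1 alpha. It read 5.63, 5.75 and 6.97 CPM in lactate and 16.7, 20.3 and 16.8 CPM with Oxyrase, and 4.98, 5.32 and 5.54 CPM in NaCl. All Oxyrase libraries were above all others (log2 fold change 1.55 ± 0.12, adjusted p = 6.99e-13, edgeR). Peaks were named by size only where the groups compared did not overlap. Near it in size was a peak 16112 bp upstream of 4930447M23Rik and 17482 bp from Armc3, at chr2:19327725-19328205 (1.51 ± 0.14). A peak at chr13:114254729-114255086, 32709 bp downstream of Ndufs4, a subunit gene of respiratory complex I, rose from 3.57, 3.52 and 3.71 CPM to 9.72, 13 and 7.42 CPM (1.48 ± 0.16). The Ndufs4 transcript was at a log2 fold change of -0.07 and did not pass. One at chr5:9042204-9042613, 3612 bp from Gm40264 and 45058 bp from Crot, the peroxisomal carnitine octanoyltransferase gene, rose by 1.47 ± 0.15.

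A peak at chr7:103860966-103861330, 7759 bp upstream of the embryonic globin gene Hbb-y, was also among the 5 highest. The locus control region of the beta-globin genes is known to lie on this side of Hbb-y. The peak read 3.36, 2.96 and 2.49 CPM in NaCl, 3.04, 4.29 and 3.52 CPM in lactate and 8.55, 11.3 and 9.55 CPM with Oxyrase (1.45 ± 0.15, adjusted p = 1.01e-09, edgeR). No Hbb-y transcript was counted in any RNA library, and all 9 erythroid and platelet genes were under 1 CPM, so the site was more open with no transcript of that gene detected at this depth.

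At the other end, the peak that fell most stood at chr1:38723230-38724136, with Lonrf2 as the nearest coding gene at 69533 bp. It read 19.7, 25.4 and 20.8 CPM in NaCl, 17.8, 17.1 and 15.4 CPM in lactate and 6.35, 5.7 and 4.96 CPM with Oxyrase. The fall with Oxyrase against lactate was -1.56 ± 0.11 (adjusted p = 1.43e-13, edgeR). A peak at chr1:189608427-189609475, 31131 bp from Cenpf, which encodes a kinetochore protein, fell from 26.3, 21.8 and 22.1 CPM to 9.02, 9.94 and 9.48 CPM (-1.30 ± 0.10). Another at chr13:108450568-108451599, 61002 bp from Depdc1b, fell by 1.27 on the log2 scale.

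Gmds encodes the enzyme that starts the making of GDP-fucose, the donor of fucose on cell surface sugars. A peak 25815 bp upstream of it, at chr13:32364577-32365717, read 21.6, 17.2 and 18.9 CPM in lactate and 8.64, 7.82 and 7.65 CPM with Oxyrase (-1.26 ± 0.11, adjusted p = 6.7e-12, edgeR). The Gmds transcript fell with it, from 24 ± 0.701 to 17.8 ± 0.44 CPM of RNA (SD, n = 3). The 5 highest and 5 lowest peaks kept their call in all 15 alternative settings run.

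Among metabolic genes, single distal peaks rose or fell while the list had shares near those of all intergenic peaks. The Gpt2 peak, 4006 bp downstream of the gene at chr8:85532908-85533250, read 5.67, 6.17 and 5.79 CPM in NaCl, 7.31, 6.84 and 6.07 CPM with pyruvate and 6.18, 7.09 and 5.94 CPM with lactate. With Oxyrase it stood at 15.2, 17.8 and 15.3 CPM, above every other library (1.33 ± 0.12 against lactate, adjusted p = 1.4e-11, edgeR). Its transcript rose from 47.6 ± 5.06 to 107 ± 25.6 CPM of RNA. Of 20 peaks nearest to genes of glycolysis and monocarboxylate transport, 5 rose and 2 fell with Oxyrase, beside 18.4% and 10.2% of all intergenic peaks. Of 36 transcripts 15 rose and 8 fell, beside 26.1% and 23.6% of all genes tested. Here and below, peak counts cover only listed genes nearest to an intergenic peak, 15 of 40 in this list. Transcript counts cover every listed gene that was tested. The median peak log2 fold change of this list was 0.12 against 0.03 for all intergenic peaks.

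A peak 6076 bp upstream of Pdk1, the kinase that shuts off pyruvate dehydrogenase, fell from 8.3, 9.5 and 8.65 CPM to 5.19, 3.8 and 5.52 CPM (-0.86 ± 0.14). Its transcript also fell (-0.34). Pdp1 encodes the phosphatase that turns pyruvate dehydrogenase back on, and a peak 43111 bp from it rose by 0.44 ± 0.10, with its transcript at 0.32.

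Oxygen-related genes followed the same mixed pattern. The Egln3 peak, 6718 bp upstream at chr12:54210592-54211135, read 16.3, 17.5 and 16.8 CPM in lactate and 28.1, 29.5 and 26.1 CPM with Oxyrase, with NaCl at 14.6, 15.6 and 16.7 CPM and pyruvate at 16.9, 14.3 and 21.3 CPM. The rise was 0.73 ± 0.10 (adjusted p = 3.57e-07, edgeR), and the Egln3 transcript rose from 62.9 ± 4.83 to 133 ± 13.5 CPM of RNA. In contrast a peak 39169 bp from Epas1, which encodes HIF-2 alpha, fell from 22.5, 20.1 and 19.3 CPM to 11.1, 11.5 and 10 CPM (-0.92 ± 0.10). The Epas1 transcript did not pass the test (-0.26 ± 0.34, adjusted p = 0.554).

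The 40 peaks nearest to HIF targets and hypoxia genes covered 16 of the 37 listed genes. Of these peaks 11 rose and 6 fell, beside 18.4% and 10.2% of all intergenic peaks. Of 36 transcripts 23 rose and 5 fell, beside 26.1% and 23.6% of all genes. Their median peak change was 0.02, close to that of all intergenic peaks, and -0.02 or -0.01 under 2 other scalings. A peak 44914 bp upstream of Car12, a carbonic anhydrase gene, was low in NaCl at 1.31, 1.55 and 1.52 CPM. It was at 2.46, 3.1 and 2.61 CPM in lactate and at 5.19, 4.05 and 4.46 CPM with Oxyrase (0.75 ± 0.19, adjusted p = 0.00206, edgeR), while the transcript fell (-0.45). The well-known hypoxia transcripts Vegfa and Slc2a3 rose with no called change at the peaks named for them. For Vegfa, the angiogenic growth factor, the peak at 8828 bp was at 0.07 ± 0.21 and the transcript at 1.12, and for the glucose transporter Slc2a3 the peak at 2061 bp was at 0.12 ± 0.10 and the transcript at 1.28.

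Effector genes of killer cells came next. The Prf1 peak, 11282 bp upstream at chr10:61286257-61286469, was weak, at 0.799, 0.843 and 1.19 CPM in lactate and 2.55, 1.84 and 2.26 CPM with Oxyrase. NaCl libraries read 1.27, 0.628 and 1.37 CPM, so the Oxyrase libraries were the highest (1.23 ± 0.29 against lactate, adjusted p = 0.000992, edgeR). Perforin transcripts rose from 154 ± 4.71 to 440 ± 8.38 CPM of RNA. Both named peaks upstream of Tnfsf10, which encodes the death ligand TRAIL, rose (0.46 ± 0.11 at 5364 bp and 0.81 ± 0.19 at 14053 bp), while the transcript fell (-0.42). Of 16 peaks nearest to genes of the cytotoxic list, 4 rose and 2 fell (median change -0.04), beside 18.4% and 10.2% of all intergenic peaks. Of 13 transcripts 10 rose and 2 fell, beside 26.1% and 23.6% of all genes.

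Cytokine genes had 9 rising and 4 falling peaks of 32 (median change 0.09), where 18.4% of all intergenic peaks rose and 10.2% fell. They had 11 rising and 3 falling transcripts of 16, where 26.1% of all genes rose and 23.6% fell. Ifng, interferon gamma, had a peak 15389 bp downstream that fell (-0.78 ± 0.12, adjusted p = 2.17e-06, edgeR) and one 24505 bp downstream that rose (0.34 ± 0.09), while its transcript rose by 1.77. A peak 18822 bp from Il10, which encodes an inhibitory cytokine, rose from 14.1, 12.8 and 13.7 CPM to 23.4, 23.3 and 18.4 CPM (0.68 ± 0.10). The Il10 transcript did not pass the filter on low counts. A peak 1174 bp from the chemokine gene Ccl4 rose by 0.57 ± 0.13 with its transcript at 0.86. For Ccl1 the peak at 15147 bp upstream missed the threshold (0.23 ± 0.09, adjusted p = 0.0562) while the transcript rose by 3.18. Of 8 chemokine transcripts tested 8 rose, and of 16 peaks 3 rose and 1 fell.

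Among receptors, Tnfrsf8, which encodes CD30 of the tumour necrosis factor receptor family, had a peak 7973 bp upstream at chr4:145323137-145323957. It read 19.2, 21.1 and 20.8 CPM in lactate and 34.1, 40.7 and 35.4 CPM with Oxyrase, with no overlap (0.85 ± 0.09, adjusted p = 8.42e-10, edgeR). The transcript rose from 1.27 ± 0.388 to 5.03 ± 0.503 CPM of RNA. Ptger2, a receptor for prostaglandin E2, had a peak 34308 bp downstream at chr14:45038128-45038364 that rose from 4.77, 4.4 and 4.26 CPM to 8.93, 10.4 and 8.65 CPM (1.06 ± 0.14, adjusted p = 1.6e-07, edgeR). Its transcript rose from 16.6 ± 0.345 to 50.6 ± 4.99 CPM of RNA. A peak 5814 bp upstream of the cytokine receptor gene Il21r rose by 0.50 ± 0.11 (transcript 0.92), and one 11869 bp downstream of Itga1, a collagen-binding integrin, by 1.11 ± 0.14 (transcript not tested).

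Inhibitory receptors had 6 rising and 7 falling peaks of 33, and 6 and 4 by total counts; over all intergenic peaks 18.4% rose and 10.2% fell. A peak 32688 bp upstream of Tigit rose from 12.8, 12 and 14.1 CPM to 21.8, 22.8 and 19.7 CPM (0.73 ± 0.10), and the Tigit transcript did not pass (0.11, adjusted p = 0.0856, edgeR). At Lag3 the peak at 1937 bp fell from 27.8, 29.7 and 27.4 CPM to 19.2, 17.4 and 19.7 CPM (-0.59 ± 0.09), and the transcript rose (0.23). A peak 3265 bp upstream of Pdcd1, which encodes PD-1, was at 14.9, 17 and 16.7 CPM in NaCl, 19.6, 21.4 and 20.5 CPM in lactate and 22.9, 25.9 and 23.3 CPM with Oxyrase; the step from lactate to Oxyrase was 0.23 ± 0.09 (adjusted p = 0.0498, edgeR). For Havcr2, TIM-3, the peak 6925 bp downstream showed no detectable change with Oxyrase (log2 fold change within 0.01 of 0 ± 0.17, adjusted p = 0.99), whereas the transcript rose by 4.64.

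**Figure D4:**
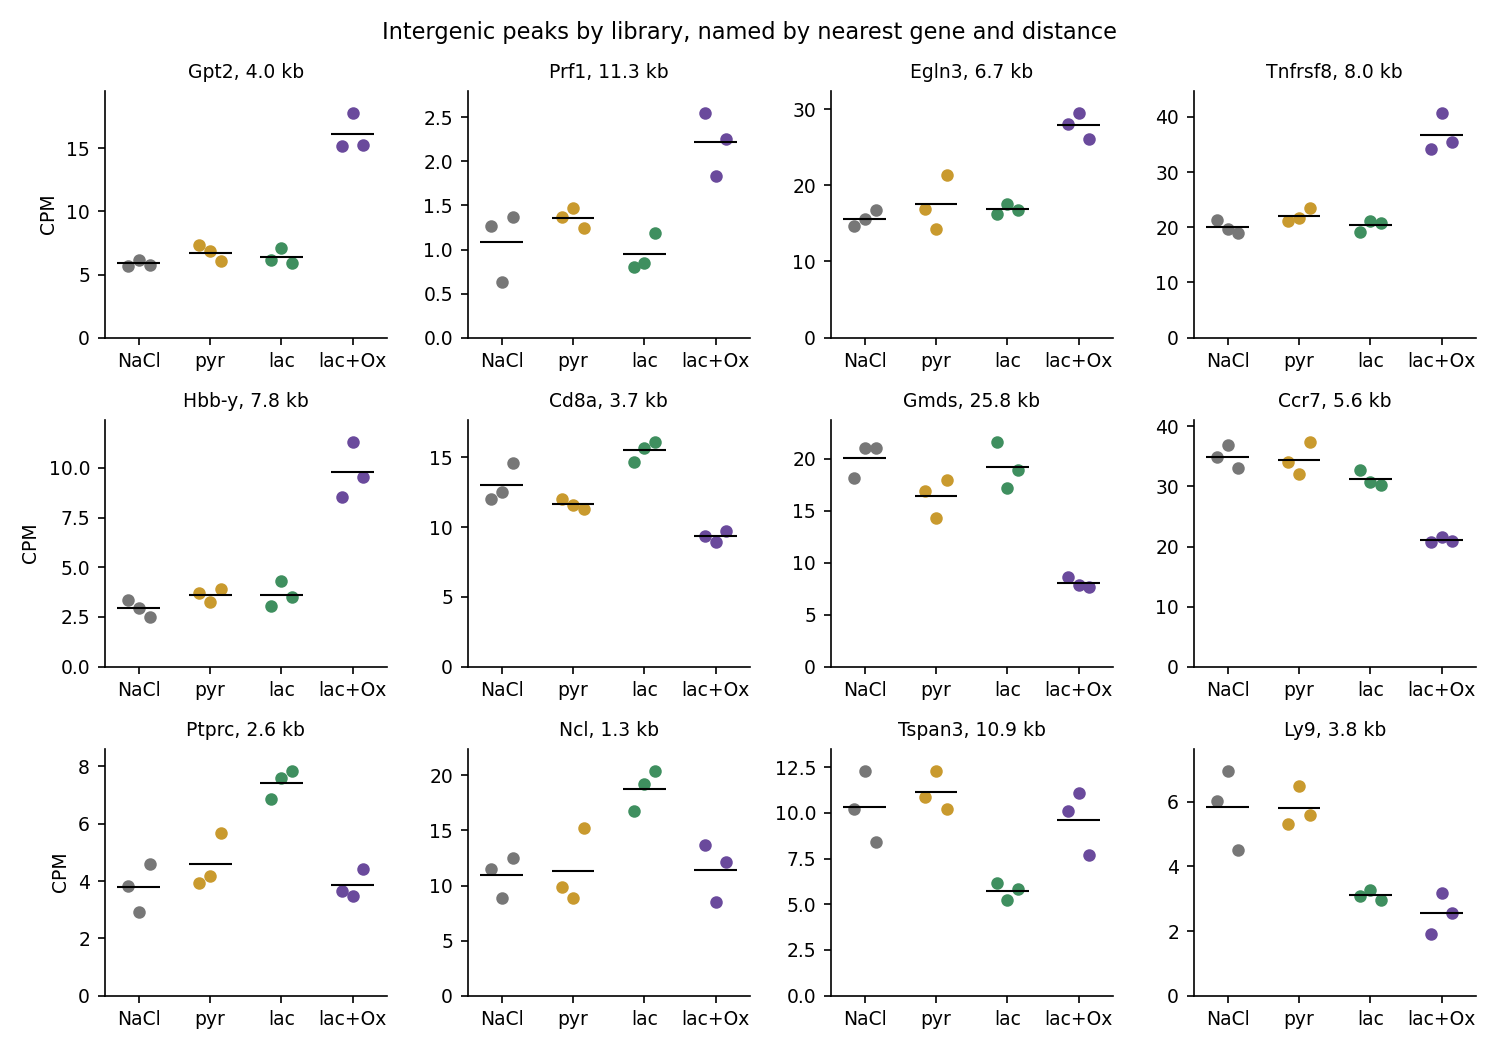
Level in CPM (y axis, from 0) of 12 named intergenic peaks, titled by nearest gene and distance, in the 12 ATAC libraries by group (x axis: NaCl, pyruvate, lactate, lactate with Oxyrase); points are libraries and lines are group means. The Gpt2, Prf1, Egln3, Tnfrsf8 and Hbb-y peaks were highest in the 3 Oxyrase libraries, the Cd8a, Gmds and Ccr7 peaks lowest there, and the Ptprc and Ncl peaks were highest in the 3 lactate libraries.

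In the lists for the CD8 T lineage and for IL-2 receptor and STAT genes, more peaks fell than rose. At Cd8a the peak 3669 bp upstream, chr6:71369324-71369758, read 14.7, 15.7 and 16.1 CPM in lactate and 9.34, 8.95 and 9.72 CPM with Oxyrase. NaCl at 12, 12.5 and 14.6 CPM and pyruvate at 12, 11.6 and 11.3 CPM lay between (-0.73 ± 0.10 for Oxyrase against lactate, adjusted p = 5.74e-07, edgeR). Cd8a transcripts fell from 658 ± 24.1 to 406 ± 7.79 CPM of RNA. Over the lineage list 2 of 25 peaks rose and 8 fell, with a median of -0.19, beside 18.4% and 10.2% of all intergenic peaks. These peaks were nearest to only 9 of the 16 genes. The adjacent genes Cd8a and Cd8b1 held 5 and 8 of them, with 0 and 1 rising and 3 falling at each, so the count leans on this locus. Of 16 transcripts 3 rose and 10 fell, beside 26.1% and 23.6% of all genes. The summed RNA of this list, given above, fell in the same libraries.

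Of 44 peaks nearest to IL-2 receptor and STAT genes 7 rose and 15 fell (median -0.14), beside 18.4% and 10.2% of all intergenic peaks. A peak 5246 bp upstream of Il2ra, the alpha chain of the IL-2 receptor, fell from 12.9, 14.4 and 13 CPM to 9.21, 8.82 and 8.55 CPM (-0.59 ± 0.11), and the Il2ra transcript stayed at 0.01. One 4864 bp downstream of Il6ra fell by 0.86 on the log2 scale, and that transcript fell as well, from 10.1 ± 1.25 to 5.29 ± 1.19 CPM of RNA. Both lists kept more falling than rising peaks under each scaling tried.

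Homing and co-stimulatory genes were divided. A peak 5640 bp from Ccr7, the receptor that brings T cells into lymph nodes, fell from 32.7, 30.8 and 30.2 CPM to 20.8, 21.6 and 20.9 CPM (-0.57 ± 0.09, adjusted p = 3.13e-06, edgeR), and its transcript fell from 606 ± 40.3 to 445 ± 7.06 CPM of RNA. In contrast a peak 17592 bp from S1pr1, the receptor for exit from lymph nodes, rose by 0.47 ± 0.10 with its transcript at 0.68. Slamf6, a surface molecule of less differentiated T cells, had a peak 16839 bp downstream that fell (-0.55 ± 0.11), and a transcript that fell from 20.5 ± 1.84 to 5.89 ± 0.516 CPM of RNA. A peak 6080 bp downstream of Tnfsf14, the ligand LIGHT, rose by 0.54 ± 0.09 while the transcript fell (-0.30). In counts, 10 rose and 12 fell of 57 peaks for naive, memory and homing genes. For co-stimulatory and death receptors 9 rose and 8 fell of 55 (9 and 9 with factors from the intergenic peaks). Over all intergenic peaks 18.4% rose and 10.2% fell.

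Among transcription factor genes of CD8 T cell fate, 25 of 76 peaks rose and 8 fell with Oxyrase, beside 18.4% and 10.2% of all intergenic peaks; 30 of the 40 listed genes had an intergenic peak nearest to them. The median was 0.12, beside 0.03 for all intergenic peaks, and 0.08 with factors from the intergenic peaks alone. Bach1, a repressor that responds to heme and oxidants, had a peak 33408 bp upstream at chr16:87665171-87665546 that read 5.2, 4.94 and 6.87 CPM in lactate and 11.4, 15 and 11.9 CPM with Oxyrase (1.17 ± 0.13, adjusted p = 4.63e-09, edgeR). Its transcript rose from 10.6 ± 1.26 to 15.8 ± 1.09 CPM of RNA. For Prdm1, which encodes the effector regulator BLIMP-1, the peak 3884 bp upstream went from 11.8, 10.5 and 12.1 CPM to 16.6, 16.9 and 15.4 CPM (0.50 ± 0.11) and the transcript from 1.38 ± 0.166 to 6.15 ± 0.359 CPM of RNA.

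A peak 19043 bp downstream of Foxo1, a regulator of quiescence, rose by 0.76 ± 0.11, with its transcript at -0.01. Falling peaks stood 9107 bp upstream of Tcf3, which encodes the E proteins (-0.97 ± 0.19), and 2207 bp downstream of Id3, an inhibitor of E proteins (-0.46 ± 0.10), and both transcripts fell (-0.64 and -0.33). At Tox, an exhaustion regulator, the peak at 10937 bp fell by 0.56 on the log2 scale (adjusted p = 0.013, edgeR), a call lost when lactate with Oxyrase 1 or lactate 3 was left out (adjusted p up to 0.0708). For Tcf7, a memory regulator, the peak at 10683 bp did not pass (-0.14 ± 0.14, adjusted p = 0.471).

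Receptor-signal transcription factors had 14 rising and 11 falling peaks of 74 (median change -0.07), and 13 and 14 with factors from the intergenic peaks alone. Over all intergenic peaks 18.4% rose and 10.2% fell. Myc, the regulator of growth and metabolism, had a peak at 8286 bp that rose from 6.67, 8.46 and 7.62 CPM to 14.1, 12.3 and 10.7 CPM (0.71 ± 0.12, adjusted p = 1.88e-05, edgeR). The Myc transcript fell, from 546 ± 22 to 338 ± 12.7 CPM of RNA. A peak 4344 bp from Nfkb1 rose by 0.37 ± 0.09 with its transcript at 0.40. A peak 1188 bp upstream of Irf4 fell from 12.1, 13.1 and 13.2 CPM to 9.51, 9.1 and 8.99 CPM (-0.47 ± 0.10), with its transcript at 0.01. Of the 6 peaks nearest to Irf4, 1 rose and 2 fell.

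Of 46 peaks near p53 targets and genes of arrest 8 rose and 3 fell, where 18.4% of all intergenic peaks rose and 10.2% fell. Among those that rose were a peak 16222 bp downstream of Cdkn2a (0.80 ± 0.12) and both named peaks downstream of Btg1, an anti-proliferative gene (0.55 ± 0.09 and 0.46 ± 0.09). NK-type lectin receptor genes had 3 rising and 0 falling peaks of 16, and 6 of 9 transcripts rose, beside 26.1% of all genes. The Klri2 peak at 1806 bp rose by 0.42 ± 0.09 and its transcript by 1.84. Of 25 peaks near fatty acid and cholesterol genes 5 rose and 2 fell (median change -0.09). Of 27 transcripts 18 fell and 5 rose, beside 23.6% and 26.1% of all genes.

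In the lipid list a peak 8864 bp downstream of Lpin1, a phosphatidate phosphatase gene, rose from 9.5, 8.46 and 9.26 CPM to 13.3, 14.9 and 12.6 CPM (0.58 ± 0.12). The Lpin1 transcript fell, from 26 ± 2.21 to 13.7 ± 1.31 CPM of RNA. At Scd1, a fatty acid desaturase, both fell, the peak at 5107 bp by 0.42 and the transcript by 1.55 on the log2 scale.

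The integrated stress response is the amino acid and unfolded protein programme run by ATF4. For its genes 20 of 20 tested transcripts rose. Only 7 of the 21 listed genes had an intergenic peak nearest to them, and of these 17 peaks 0 rose and 4 fell. Beside this and the lists below, 18.4% of all intergenic peaks rose and 10.2% fell, and 26.1% of all genes rose and 23.6% fell. A peak 9390 bp upstream of the amino acid transporter gene Slc38a2 fell from 61.1, 49.4 and 51.5 CPM to 39.1, 39.2 and 40.1 CPM (-0.45 ± 0.11), and one at 20488 bp by 0.91 on the log2 scale. Bcat1, which encodes a branched-chain amino acid transaminase, was of this kind outside the list, with a peak 16976 bp upstream that fell from 11.7, 13.6 and 9.75 CPM to 5.76, 6.45 and 6.96 CPM (-0.87 ± 0.13). Its transcript rose from 217 ± 4.12 to 380 ± 34.5 CPM of RNA. Interferon response genes had 4 rising and 2 falling peaks of 40, near 17 of 35 genes, against 4 rising and 19 falling transcripts of 32. NRF2 and oxidant defence genes had 2 and 1 of 12 peaks, near 5 of 30 genes, against 12 and 8 of 28 transcripts. Genes of other cell types had few intergenic peaks nearest to them: 1 of 3 rose for B cells, 2 of 9 for myeloid cells, 1 of 7 for NK cells and 0 of 2 each for CD4 and erythroid cells, and none fell.

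Lactate with Oxyrase was also compared with NaCl, a comparison that shares its Oxyrase libraries with the one above. More distal sites differed: 4401 intergenic peaks were higher and 2397 lower, 6798 in all (36.9%), against 40.7% of all peaks. Higher calls made up 23.9% of intergenic and 21.5% of all peaks, and lower calls 13% and 19.2%; at gene ends 10.7% were higher and 38.7% lower. The split depended on scaling, with 5645 higher and 1531 lower by total counts and 3469 higher and 3175 lower with factors from the intergenic peaks. Total-count scaling moved the median of all peaks by 0.11 in this comparison. By distance the higher calls were 20.6%, 22.2%, 24.1%, 25.5% and 25.8% and the lower calls 14.9%, 13.9%, 12.7%, 12.4% and 11.5% from the nearest to the farthest bin.

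Against NaCl the highest rises named by size were again at Gm41747 (1.76 ± 0.12), Hbb-y (1.75 ± 0.16) and 4930447M23Rik (1.74 ± 0.14). Next stood a peak at chr14:79443041-79443943, 7892 bp from Kbtbd6, with 3.59, 2.7 and 2.92 CPM in NaCl and 9.86, 10.6 and 8.05 CPM with Oxyrase (1.63 ± 0.15, adjusted p = 2.07e-11, edgeR). A peak 77230 bp from Nfkbiz, which encodes a nuclear regulator of NF-kB, at chr16:55733775-55734145, rose by 1.63 ± 0.13. The lowest were the chr1:38723230-38724136 peak (-1.95 ± 0.11) and the Bcat1 peak, with 18.9, 22.8 and 14.4 CPM in NaCl (-1.55 ± 0.13). The Tcf3 peak was at -1.47 ± 0.18, with 5.6, 5.58 and 5.13 CPM in NaCl and 1.63, 1.96 and 2.33 CPM with Oxyrase.

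In the lists, 28 of 76 peaks for CD8 fate factors rose against NaCl and 4 fell, with a median of 0.16, beside 0.08 for all intergenic peaks. Among all intergenic peaks 23.9% rose and 13% fell against NaCl, to be read beside each list here. For interferon response genes 13 of 40 rose and 2 fell. The Gbp6 peak at 3274 bp, near a gene of an interferon-induced GTPase, read 2.66, 2.29 and 1.9 CPM in NaCl and 4.51, 4.8 and 5.02 CPM with Oxyrase (1.07 ± 0.18), and the Gbp6 transcript fell (-0.82). Receptor-signal factors had 20 rising and 23 falling peaks of 74. The Jund peak 1906 bp upstream, at a gene of an AP-1 subunit, fell from 31.2, 32.1 and 21.8 CPM in NaCl to 12.8, 12.8 and 12.9 CPM (-1.14 ± 0.11, adjusted p = 8.83e-11, edgeR), with its transcript at 0.01. A peak 2259 bp downstream of Socs3, a feedback inhibitor of cytokine signals, fell by 0.98 on the log2 scale while the transcript rose (0.35). The count for receptor-signal factors turned to 25 rising and 19 falling by total counts.

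Lactate was compared with NaCl to read the effect of lactate at equal salt. Few distal sites changed: 200 intergenic peaks were higher and 441 lower, 641 in all (3.48%), against 6.41% of all peaks and 14.6% of gene-end peaks. Higher calls made up 1.08% of intergenic and 1.13% of all peaks. Lower calls made up 2.39% of intergenic, 5.28% of all and 14% of gene-end peaks. The direction turned with scaling, to 525 higher and 255 lower by total counts, and was 127 higher and 590 lower with factors from the intergenic peaks. Single libraries decided the number of calls. It rose to 1726 without NaCl 3. It dropped to 75 when NaCl 2 was left out, to 150 for NaCl 1, to 129 for lactate 3 and to 274 for lactate 2. Without NaCl 3 the calls were 848 higher and 878 lower.

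Peaks named by size came only from called peaks whose NaCl and lactate libraries did not overlap. Their separation therefore follows from the choice. Ptprc encodes CD45, the phosphatase that sets the threshold of antigen receptor signals. A peak 2552 bp downstream of it, chr1:138059586-138060307, read 3.82, 2.92 and 4.6 CPM in NaCl and 3.92, 4.19 and 5.67 CPM with pyruvate. In lactate it read 6.86, 7.58 and 7.84 CPM and with Oxyrase 3.64, 3.49 and 4.43 CPM. The lactate libraries were above all 9 others (0.96 ± 0.16 against NaCl, adjusted p = 0.000338, edgeR), and the Ptprc transcript did not pass against NaCl (-0.06, adjusted p = 0.252). With Oxyrase against lactate the peak fell by 0.95 on the log2 scale and with pyruvate against lactate by 0.70. These comparisons share the lactate libraries.

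A peak 1278 bp downstream of Ncl, which encodes the ribosome biogenesis protein nucleolin, had the same order. It read 11.5, 8.83 and 12.5 CPM in NaCl, 16.8, 19.2 and 20.4 CPM in lactate and 13.7, 8.54 and 12.1 CPM with Oxyrase (0.77 ± 0.14 for lactate against NaCl, adjusted p = 0.000604, edgeR). The Ncl transcript rose with lactate, from 2988 ± 93.3 to 3625 ± 294 CPM of RNA. A peak 8885 bp from the non-coding Gm30568, at chr1:157050201-157050576, read 2.93, 3.11 and 3.36 CPM in NaCl and 4.98, 5.09 and 5.91 CPM in lactate (0.76 ± 0.16, adjusted p = 0.00182, edgeR). It stood at 5.89, 6.55 and 6.06 CPM with Oxyrase. Peaks downstream of Heatr3 (0.71 ± 0.18) and Agfg1 (0.70 ± 0.16) were also among the 5 highest. The Heatr3 call was lost when NaCl 1, NaCl 2, lactate 2 or lactate 3 was left out (adjusted p up to 0.123), and the Agfg1 call when NaCl 2 or lactate 3 was (up to 0.0606).

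Lower with lactate was a peak 1114 bp upstream of Pglyrp2, a peptidoglycan amidase gene, at chr17:32425333-32425535. It read 6.29, 6.91 and 4.36 CPM in NaCl and 2.86, 2.49 and 3.03 CPM in lactate (-1.05 ± 0.18, adjusted p = 0.00045, edgeR). A peak 3768 bp from Ly9, a SLAM family receptor gene, fell from 6.02, 6.95 and 4.51 CPM to 3.07, 3.26 and 2.97 CPM (-0.91 ± 0.18, adjusted p = 0.000992), and its transcript fell from 112 ± 3.34 to 98.8 ± 2.7 CPM of RNA. NaCl 3 was the lowest NaCl library at both peaks and, as the choice of these peaks required, did not overlap with lactate. A peak 23071 bp downstream of Fam72a was at 8.38, 8.39 and 4.7 CPM in NaCl and 4.49, 3.33 and 3.42 CPM in lactate (-0.92 ± 0.17). A peak 10861 bp upstream of Tspan3, a tetraspanin gene, fell from 10.2, 12.3 and 8.43 CPM to 6.18, 5.25 and 5.84 CPM (-0.83 ± 0.14, adjusted p = 0.000305, edgeR). With Oxyrase it was back at 10.1, 11.1 and 7.69 CPM (0.74 ± 0.14 against lactate), and the Tspan3 transcript rose from 34.5 ± 1.95 to 73 ± 4.43 CPM of RNA. No role list had more than 8 called peaks in this comparison. The receptor-signal factors had 0 rising and 8 falling of 74, beside 1.08% and 2.39% of all intergenic peaks.

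Pyruvate was compared with NaCl as the other carboxylate at equal salt. No intergenic peak passed the test with edgeR, 0 of 18435, beside 0% of all peaks. The lowest adjusted p was 0.172 and DESeq2 also called 0, while 1128 intergenic peaks had a p under 0.05 before adjustment. In RNA 848 of 3785 tested nearest genes (22.4%) were called, 586 higher and 262 lower, against 15.7% of all genes (9.4% higher and 6.28% lower). The difference between the assays was not tested. In a simulation of the comparison of Oxyrase with lactate, 50 peaks were changed at each fold. Of those changed 1.5-fold 54% were recovered, of those changed 2-fold 86% and of those changed 1.25-fold 4%. In the data 21539 of 75802 peaks were called in that comparison, so these recovery rates may not hold there. Pyruvate against NaCl was not simulated.

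Pyruvate was compared with lactate directly, with lactate libraries that 2 of the comparisons above also used. Here 655 intergenic peaks were higher with pyruvate and 938 lower, 1593 in all (8.64%), against 11.6% of all peaks (6.84% higher and 4.78% lower). Gene-end peaks had 16.8% higher and 2.61% lower, while intergenic peaks had 3.55% higher and 5.09% lower. The direction was not stable: 447 were higher and 1515 lower by total counts, and 861 higher and 609 lower with factors from the intergenic peaks. Calls fell to 618 without lactate 3, 804 without pyruvate 2, 866 without lactate 2 and 954 without pyruvate 1.

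Receptor-signal transcription factors had 17 higher and 4 lower peaks of 74 with pyruvate, and 11 and 5 by total counts. Over all intergenic peaks 3.55% were higher and 5.09% lower with pyruvate, and over all peaks 6.84% and 4.78%. The Jund peak was at 30.5, 28.8 and 24.3 CPM with pyruvate and 22.5, 19.7 and 16.7 CPM with lactate (0.51 ± 0.11, adjusted p = 0.00164, edgeR). Highest by size was a peak 1439 bp from Apol6, with 6.53, 8.2 and 7.05 CPM with pyruvate and 3.72, 4.48 and 2.78 CPM with lactate (0.99 ± 0.19), followed by the Tspan3 (0.95 ± 0.14), Ly9 (0.90 ± 0.18), Gm30509 (0.90 ± 0.14) and Pglyrp2 (0.90 ± 0.19) peaks. The Gm30509 peak, 4296 bp upstream of that non-coding gene at chr17:31875399-31875732, read 15.1, 14.7 and 12.8 CPM with pyruvate and 9.38, 5.63 and 7.68 CPM with lactate. A peak 17768 bp upstream of Crot was lower, at 6.78, 7.42 and 6.36 CPM with pyruvate and 11.8, 11.6 and 12.7 CPM with lactate (-0.82 ± 0.12, adjusted p = 3.02e-05, edgeR). It read 8.88, 8.28 and 9.83 CPM in NaCl, between both and overlapping neither. Of 16 peaks near NK-type lectin receptor genes 0 were higher and 4 lower.

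Intergenic peaks close together moved alike. For Oxyrase against lactate, the log2 fold changes of next neighbours in 1 stretch at most 2 kb apart had a Pearson correlation of 0.42 over 2818 pairs. It was 0.25 over 4489 pairs at 2 to 10 kb, 0.16 over 2632 pairs farther apart and 0.14 over 2484 pairs up to 50 kb apart with a gene between them. Where both neighbours were called, 288 of 320 pairs (90%) within 2 kb had the same direction, and 145 of 204 (71.1%) with a gene between. The pairs share their libraries and are given as a description.

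The longest row of rising sites against lactate lay between Ptger2 and Gm21010 on chromosome 14, from 45005368 to 45086451, where 10 of 14 peaks rose and 0 fell. Their changes ran from 0.24 to 1.06 with a median of 0.43. Against NaCl, 9 of 10 peaks between Gm22808 and Bach1 on chromosome 16, from 87624885 to 87665546, rose by 0.25 to 1.37 with a median of 0.69. The highest of these, chr16:87657993-87658707, read 5.83, 5.25 and 7.31 CPM in NaCl, 6.61, 5.82 and 6.81 CPM in lactate and 15, 18.7 and 14.1 CPM with Oxyrase.

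The brightest intergenic peaks stood far above the median level of 4.17 CPM. How reads that match several places were counted is not given in the sources used here, and its part in these levels was not tested. The brightest, chr2:98666247-98667321, held 2817, 2762 and 2239 CPM in NaCl and 1608, 1870 and 2327 CPM with Oxyrase, with overlapping groups (-0.43 ± 0.13 against NaCl, adjusted p = 0.00775, edgeR). It did not pass against lactate (-0.31 ± 0.13, adjusted p = 0.0727). On chromosome 9, 17 of the 18 peaks from 3000018 to 3036102 before Mir101c were lower with Oxyrase than with NaCl, by 0.33 to 0.61 on the log2 scale. The brightest of them, chr9:3000018-3000671, fell against lactate by 0.32 on the log2 scale (adjusted p = 0.0451, edgeR), a call lost in 7 of 15 settings. It read 401, 390 and 332 CPM in NaCl and 233, 265 and 351 CPM with Oxyrase, with overlapping groups. The groups also overlapped at chr9:3029501-3029866, with 19.2 CPM in NaCl 3 and 19.8 CPM in lactate with Oxyrase 3. Without both stretches the share of counts in intergenic peaks was 14.13%, 14.11%, 14.98% and 15.84% in NaCl, pyruvate, lactate and lactate with Oxyrase, in the same order as with them.

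Transcripts of the genes nearest to intergenic peaks were compared with the peaks. Of 18435 peaks, 7242 had a nearest gene whose transcript was tested, 3785 genes in all. With Oxyrase against lactate 2308 of these genes (61%) were called, 1277 higher and 1031 lower, against 49.7% of all genes (26.1% higher and 23.6% lower). For pyruvate against NaCl, where no intergenic peak was called, nearest genes were also called more often (22.4% against 15.7%). Nearest genes were not matched to all genes for expression level, and the part of level in these differences was not tested. Near peaks that rose, 43.8% of transcripts rose and 21.5% fell. Near peaks that fell, 26.7% rose and 38% fell. Over all 7242 peaks 35.1% rose and 27.7% fell. Where both were called, 845 of 1321 pairs (64%) had the same direction. Across these 7242 peaks, which are not independent and share libraries, the correlation of both log2 fold changes was 0.13.

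For Oxyrase against NaCl 1088 of 1772 pairs (61.4%) had the same direction, with 2315 nearest genes called (61.2%, against 50.8% of all genes, 26.5% higher and 24.3% lower). For lactate against NaCl it was 25 of 37 pairs, with 392 genes called (10.4% against 7.73%, of which 3.61% higher and 4.12% lower), and for pyruvate against lactate 103 of 227 pairs (45.4%), with 1171 genes called (30.9% against 24%, 13% higher and 10.9% lower). Among the named peaks that are reported here, 44 had called changes of peak and nearest transcript with Oxyrase against lactate, 31 in the same and 13 in opposite directions. The opposite ones include Myc, Lpin1, Car12 and Tnfsf14, where the peak rose, and Bcat1, Slc38a2 and Lag3, where the peak fell.

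**Figure D5:**
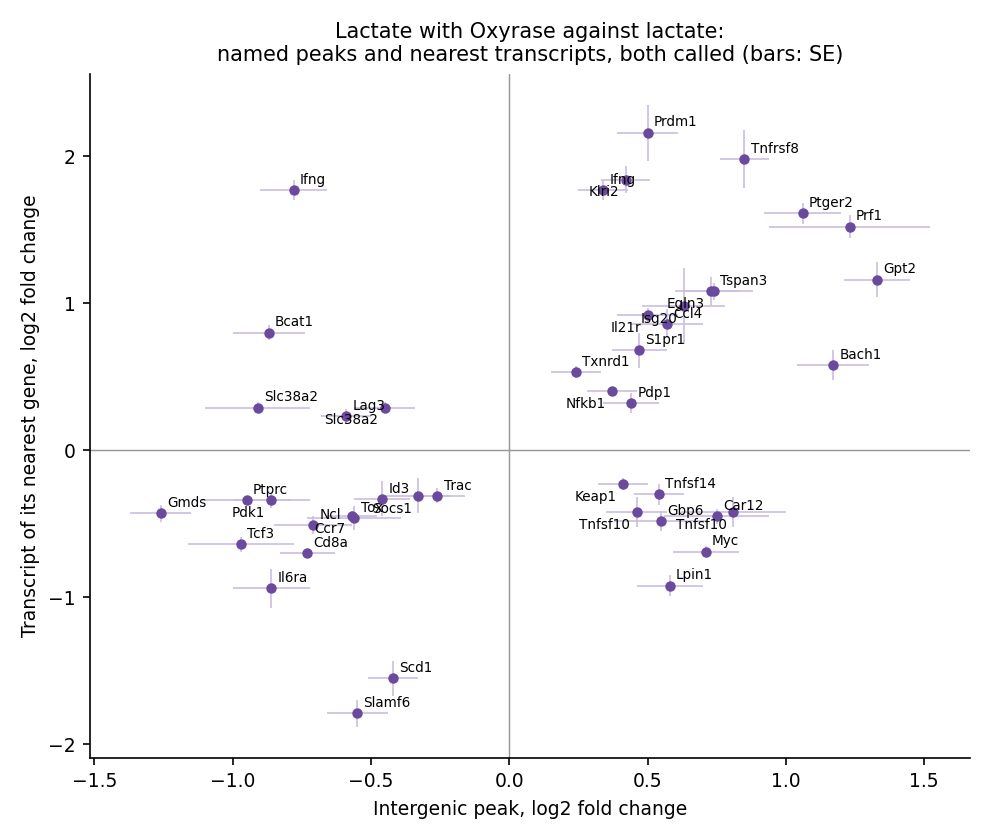
Log2 fold change of the intergenic peak (x axis) and of the transcript of its nearest gene (y axis) for lactate with Oxyrase against lactate, for 44 named peaks near 41 genes where both were called; bars are standard errors. Of these points 31 lie in the quadrants of equal direction and 13 in those of opposite direction.

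Called peaks also stood right at both limits of the rule. At the inner limit, a peak 1002 bp upstream of the olfactory receptor gene Olfr525 read 49.2, 47.9 and 46.9 CPM in lactate and 29, 26.1 and 25.6 CPM with Oxyrase (-0.83 ± 0.09), and one 1002 bp from Gm15794 rose by 0.27 ± 0.10. At the outer limit, a peak 49931 bp from Gm24696 fell by 0.47 on the log2 scale. A peak 49787 bp from Gm41192 rose from 2.61, 2.49 and 3.52 CPM to 6.38, 5.86 and 3.93 CPM (0.91 ± 0.18).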

How the data were processed

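The authors deposited read counts per ATAC peak in 75802 peaks of mm10 and estimated counts per gene from RSEM for RNA. The submitters' processing notes name Trimmomatic, RSEM 1.2.12, Bowtie2 2.2.0, edgeR 3.20.9, BWA, Picard, MACS2 and bedtools; duplicates and mitochondrial reads were removed per the file headers. The deposited RNA table is called adjusted, and the adjustment is not given in the sources used here: 99.24% of its values above 0 were whole to within 1e-09, and 448 of the 460 genes with other values above 1 were at 0 throughout 1 replicate number. Its effect on the RNA p-values was not tested.

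Peaks were placed with the RefSeq GRCm38.p6 gene table and are given with coordinates as in the deposited table. RNA counts were rounded. For each assay 1 quasi-likelihood model with edgeR 4.0.16 was fitted to all 12 libraries and all features (TMM scaling, filterByExpr, which removed no peak and left 14749 of 55401 genes), with 5 comparisons, Benjamini-Hochberg adjustment over all features and a threshold of 0.05, which is what called, rose and fell mean. Changes are log2 fold changes ± SE. Of 55401 gene identifiers 55141 matched a symbol. Libraries held 25.31 to 37.07 M (ATAC) and 26.04 to 39.64 M (RNA) counts. The members, the 18 role lists and the 5 marker lists were chosen with earlier results of these data known. Named peaks were the 5 highest and 5 lowest called changes among peaks whose mean log2 CPM reached 2, with groups that did not overlap, the 3 brightest, up to 3 called peaks per role list, those nearest to 14 fixed genes (none is nearest to Gzmb or Hk2), the 3 longest runs and those closest to the limits; 1 peak within this rule is not reported here. No genome of this build was used, so peak sequences and GC content were not analysed here.

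On simulated counts for lactate with Oxyrase against lactate (75802 peaks), 50 peaks were changed at each of the folds 1.25, 1.5, 2 and 4. In all 130 peaks were called and 8 of them (6.15%) were false. Replicate numbers were not used to pair samples: the labels name no shared mouse, batch or day, although ATAC library names run through the 4 groups within each number, and same-numbered libraries did not all correlate at over 0.1. Alternatives changed scaling, filter, tool (DESeq2 1.42.0), samples, limits and threshold; 2 were added after seeing the data. Analyses ran in R 4.3.3 with limma 3.58.1 and Python 3.11.15 with pandas 2.3.3, numpy 2.4.6 and matplotlib 3.10.9.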

Additional observations from a re-analysis of the deposited data

How the results depend on the processing

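The percent of intergenic peaks called moved by over 1.5 times with the threshold in 3 comparisons: to 6.32% (506 higher, 659 lower) at an adjusted p under 0.10 and 1.11% (31 and 174) under 0.01 for lactate against NaCl, to 13.5% and 3.22% (295 and 298) for pyruvate against lactate, and to 17.9% (2320 and 978) under 0.01 for lactate with Oxyrase against lactate. Leaving out 1 library at a time gave 0.407% to 9.36% (75 to 1726 peaks) for lactate against NaCl, 3.35% to 7.36% (618 to 1356) for pyruvate against lactate, 21.5% to 26.1% for lactate with Oxyrase against lactate and 30.0% to 36.1% against NaCl. For pyruvate against NaCl the count was 0 in every setting run except with replicate number as a block, which called 1 peak (0.00542%). Transcripts of nearest genes without 1 library were 13.6% to 18.7% for pyruvate against NaCl (521 genes without pyruvate 2), 4.26% to 9.74% for lactate against NaCl (164 genes when NaCl 2 was left out, 191 for NaCl 1, 191 for lactate 2 and 239 for lactate 3), 55.5% to 57.6% for lactate with Oxyrase against NaCl, 55.2% to 56.9% against lactate and 23.4% to 26.3% for pyruvate against lactate. The replicate block lowered that for lactate against NaCl to 6.55% (97 higher, 151 lower). For intergenic peaks in lactate against NaCl it gave 932 calls, 370 higher and 562 lower, in place of 641, 200 and 441. Same-numbered ATAC libraries correlated at -0.15 to 0.17 after removal of group means, 6 of 18 pairs above 0.1, and 7 of 12 libraries correlated best with their own number. In RNA these correlations were -0.21 to -0.08. The share of counts in intergenic peaks, 15.23% over the 12 libraries, was 12.83% with an inner limit of 2.5 kb, 13.05% with an outer limit of 25 kb and 17.29% with protein-coding genes only. The 115 results for named peaks gave 1951 values over their alternative settings, of which 1889 kept direction and call, 45 lost and 16 gained the call, and 1 turned direction: the Tcf7 peak with Oxyrase against lactate, at 0.03 without lactate 2 (-0.24 to 0.03 over the libraries left out); 99 of 109 called results kept their call in every setting run. With the nearest protein-coding gene in place of the nearest gene, chosen after seeing the data, 62.1% of pairs called for both peak and transcript had the same direction. With the depth, spread and 3 libraries a group of these data, but only 50 peaks changed at each fold, 4% of simulated 1.25-fold changes were recovered. The cause of these changes was not tested.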
